A study of Mesocricetus auratus with 36 samples.

Results

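The nuclear genes of oxidative phosphorylation are described here across the hibernation season of the golden hamster (Mesocricetus auratus). The members were all genes whose symbols match a fixed naming pattern for nuclear-encoded subunits of the respiratory complexes and the ATP synthase and whose mean over 36 libraries was at least 1 CPM, a gene's count scaled to one common library total. That gave 60 of the 32340 genes in the tables. Complex I (Ndufa, Ndufb, Ndufc, Ndufs or Ndufv followed by a digit, which leaves out Ndufab1) had 36 members, complex II (Sdha to Sdhd) had 4 and complex V, the ATP synthase (Atp5 symbols), had 18. Ndufa4 and its relative Ndufa4l2 made up the remaining 2 and are kept apart, because the Ndufa4 protein is nowadays counted with complex IV. The nuclear subunits of complexes III and IV were not analysed here. All 60 matching symbols passed the minimum of 1 CPM: the lowest was Ndufa4l2 at 3.24 CPM and the next Atp5mk at 21.1 CPM, so no matching gene lay just below it.

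The tissue was the ependymal strip of the hypothalamus, cut by laser capture from frozen brains of male hamsters, 6 animals in each of 6 groups. Long photoperiod animals had 14 h of light a day at 22 °C and were 8 months old per the labels, although the protocol has some of them taken early in the study, which leaves their age uncertain. All other animals had 10 h of light at 8 °C. Pre-hibernation animals (4 months old) were taken after 4 weeks and late pre-hibernation animals (6 months old) after 8 to 12 weeks, both without torpor. Interbout animals (6 months old) were taken after 3 cycles of torpor, 23 h into euthermia, the warm interval between bouts, and torpid animals (6 months old) 13 h into a bout. Refractory animals (8 months old) had given up hibernating at about 20 weeks. Long photoperiod animals differed from all others in both day length and temperature, and from all but the refractory ones in age, and in these comparisons the parts cannot be told apart. Late pre-hibernation, interbout and torpid animals shared age, day length and temperature. Pre-hibernation and refractory animals differed from those 3 groups in age along with weeks on short days. All animals carried an implanted temperature logger. In this dissected tissue, fewer cells of one type and less RNA per cell cannot be told apart either.

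Oxidative phosphorylation is the process by which mitochondria turn the energy of nutrients into ATP. Complex I takes electrons from NADH and complex II from succinate. Their passage down the chain pumps protons across the inner membrane, and the ATP synthase lets the protons flow back through a rotating ring while making ATP. Most subunits are encoded in the nucleus, and a core of each proton-pumping complex is encoded by the mitochondrial genome. Metabolic rate falls deeply in torpor and returns at each arousal, and mitochondrial respiration is known to be lowered in the liver of torpid hibernators.

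The libraries held 5161108 to 28541745 counts. In 33 libraries ribosomal RNA genes took 0.219 to 0.826% of the counts and the 60 members took 1.40 to 1.69%. The other 3, called rRNA-rich here, stood apart. Refractory 4 had 41.8% on ribosomal RNA, 0.449% on the members and the fewest counts. Pre-hibernation 5 had 9.28% and 1.28%, and interbout 6 had 7.21% and 1.12%. The 13 mitochondrially encoded protein genes took 1.81 to 2.90% of counts in the 33 libraries but 9.24%, 12.0% and 13.8% in pre-hibernation 5, interbout 6 and refractory 4. The tissue carried its defining tanycyte markers: the intermediate filament gene Vim had group means of 1065 to 1398 normalised CPM and the tanycyte transcription factor gene Rax of 64.9 to 153.9. All 16 tanycyte markers in the tables had counts, as did all 13 ependymal, 17 neuron and 9 oligodendrocyte markers. Rax was lowest in torpor. Of the 16 tanycyte markers 0 differed between torpor and interbout euthermia at an adjusted p under 0.05 with all libraries (median log2 fold change -0.24). Without the rRNA-rich libraries Nes was higher and Dio2 lower in torpor (median of the markers -0.09). Summed neuron markers ranged from 611.5 to 1481 normalised CPM and summed oligodendrocyte markers from 144.6 to 498.4 over the libraries.

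The level of the members was compared per length, as normalised CPM per kb of exon averaged over the 36 libraries. Over all members the median was 266.3 normalised CPM per kb, against 4.38 over the 17926 genes tested. Complex V had a median of 353.6, complex II of 245.2 and complex I of 238.8. Of the 60 members 59 lay above that median of all genes, and Ndufa4l2 lay below it.

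The genes of one complex differed widely in level. In complex V, Atp5f1b, which encodes the catalytic beta subunit, was the highest member at 858.0 ± 142.3 normalised CPM per kb (SD, n = 36). Its alpha partner Atp5f1a reached 530.9 ± 88.1. The lowest was Atp5mk at 48.5 ± 8.70, a small subunit of the membrane part, followed by Atp5me, subunit e of the membrane part, at 55.7 ± 19.1. In complex I, Ndufb8, an accessory subunit of the membrane arm, was highest at 557.6 ± 69.2. Ndufs1, the largest iron-sulfur subunit of the electron input arm, was lowest at 56.7 ± 11.2, while its neighbour Ndufv1, which binds NADH, stood at 183.8 ± 25.6 and the accessory subunit Ndufa9 at 155.8 ± 23.6. The 4 genes of complex II lay close together: Sdhb, the iron-sulfur subunit, had 320.0 ± 33.6, the catalytic flavoprotein Sdha 249.1 ± 48.2, and the membrane anchors Sdhc and Sdhd 241.3 ± 32.0 and 192.9 ± 28.4. Ndufa4 was among the highest members with 599.2 ± 72.5 normalised CPM per kb, and Ndufa4l2 was the lowest of all with 3.13 ± 1.75.

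**Figure D1:**
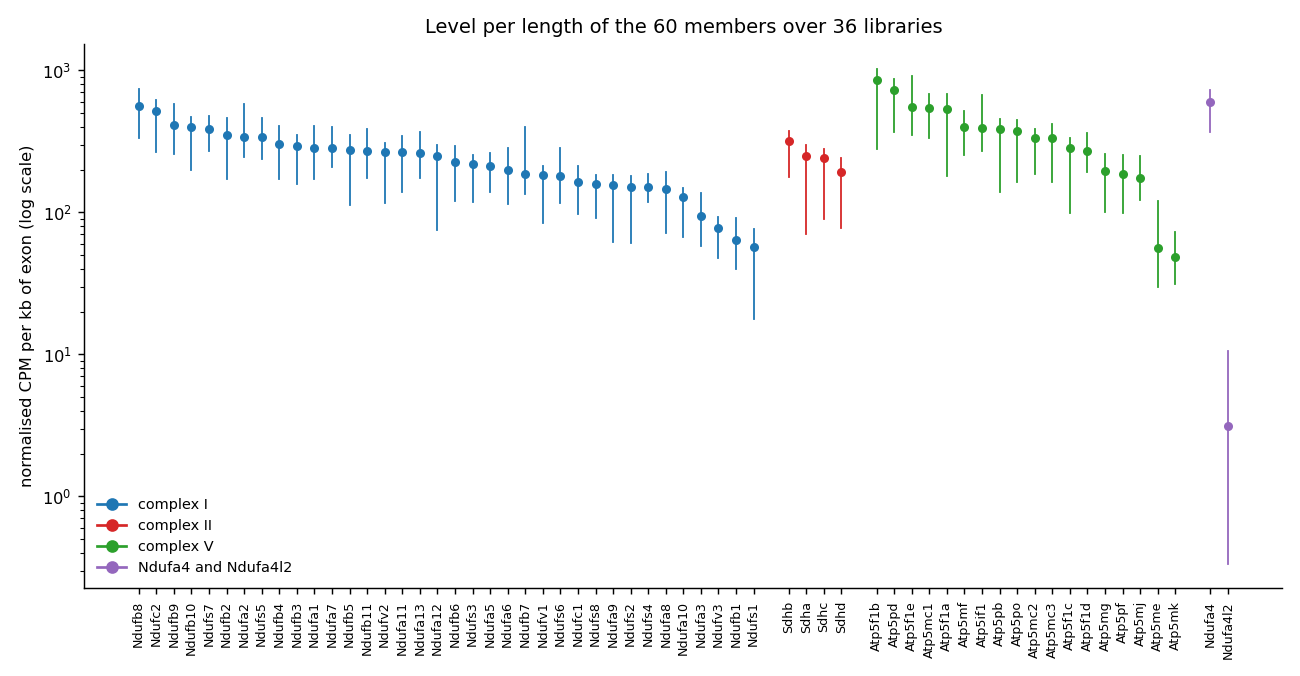
Mean level per length of each of the 60 members over 36 libraries (points, normalised CPM per kb of exon, log scale), with lines from the lowest to the highest library; colours mark complexes. Atp5f1b is highest at 858.0 and Ndufa4l2 stands far below all others at 3.13; the 4 genes of complex II lie between 192.9 and 320.0.

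The 3 genes Atp5mc1, Atp5mc2 and Atp5mc3 encode the same mature ring subunit c with different import sequences. Per length, Atp5mc1 supplied 44.5 ± 1.23% of the sum of the 3 genes on long photoperiod (SD, n = 6). The share was 45.7 ± 2.16% in pre-hibernation and 44.0 ± 2.08% in its late stage. It was 44.3 ± 1.05% in interbout animals, 46.03 ± 2.29% in torpid ones and 44.8 ± 2.23% in refractory ones. Atp5mc2 supplied 27.01 to 28.22% and Atp5mc3 26.70 to 28.04% as group means. The group means of each share thus differed by about as much as animals of one group did. In the rRNA-rich libraries Atp5mc3 supplied less, 22.9% in pre-hibernation 5, 23.8% in interbout 6 and 23.8% in refractory 4.

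Each library's position was summarised as the median, over the members of a complex, of the log2 difference from the mean of the 33 libraries under 5% rRNA. For complex I the 33 libraries lay between -0.28 (interbout 2) and 0.24 (refractory 1), and for complex V between -0.29 and 0.28 in the same libraries. Complex II, with its longer transcripts, lay between -0.15 and 0.17. Refractory 4 lay far below these ranges, at -0.80 for complex I, -1.42 for complex II and -0.88 for complex V. Interbout 6 was low in complex II (-0.41) and pre-hibernation 5 was low in complex II (-0.30) but high in complex V (0.26). These libraries differ from the others in rRNA share as given above, and the part of that in the members' values was not tested beyond leaving them out.

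Among the 33 libraries, complex II was placed between -0.13 and -0.02 on long photoperiod and between -0.15 and 0.04 in pre-hibernation. Late pre-hibernation animals lay between -0.07 and 0.07 and interbout animals between -0.03 and 0.11. Torpid animals lay between 0.02 and 0.17 and refractory animals between -0.10 and 0.07. The long photoperiod animals (median -0.06) and the torpid animals (median 0.07) did not overlap, and no test was made of this summary. That pair of groups is not among the comparisons described below. The 6 groups overlapped throughout in complexes I and V.

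**Figure D2:**
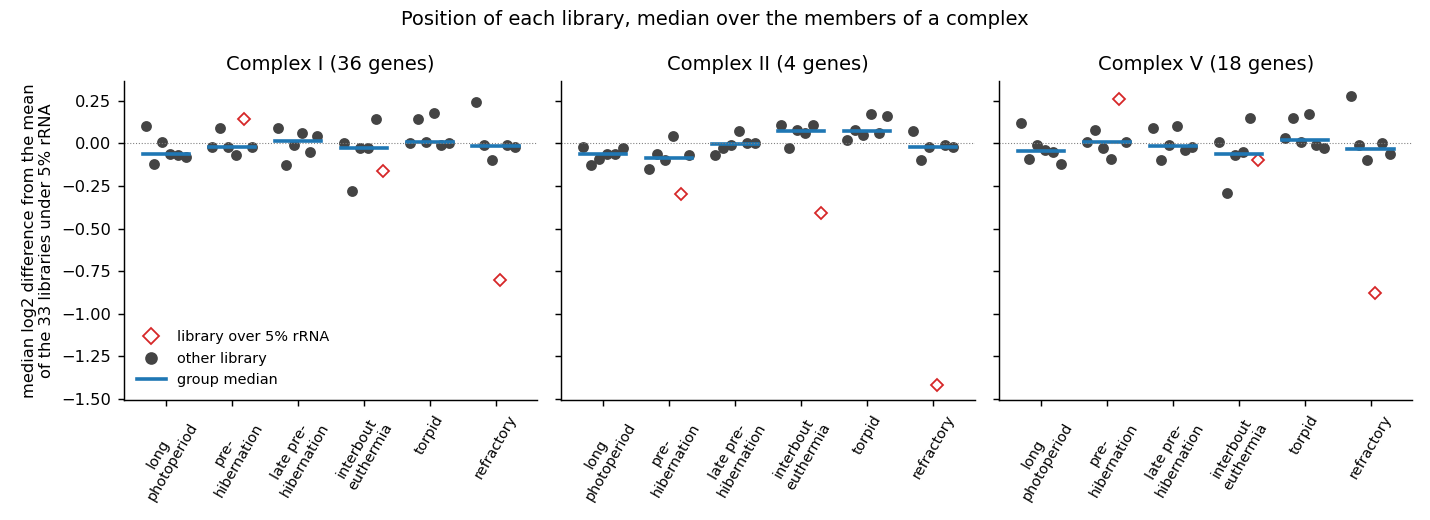
Position of each library for complexes I, II and V: the median log2 difference of the complex's members from their mean in the 33 libraries under 5% rRNA, by group, with group medians as bars. Open diamonds are the 3 rRNA-rich libraries; refractory 4 lies at -0.80, -1.42 and -0.88.

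Across the 6 groups, 0 of the 60 members passed the 6-group test (edgeR quasi-likelihood F test, Benjamini-Hochberg adjusted p under 0.05 over all genes tested), where 14.6% of the genes tested passed. At an unadjusted p under 0.05 it was 1 member, Atp5me (adjusted p = 0.162), against 29.3% of all genes. DESeq2 called 0 members (23.7% of genes), and limma voom, which weights down libraries that fit poorly, called 8 (43.4% of genes): Ndufs1, Ndufv3, Ndufa10, Ndufb1, Sdhd, Atp5if1, Atp5me and Atp5pf. Without the 3 rRNA-rich libraries edgeR called 3 members, against 27.7% of genes: Sdhd (adjusted p = 0.00164), Ndufs1 (0.0173) and Ndufv3 (0.0288). Leaving out interbout 6 alone gave 1 call, Atp5me, and the share of all genes called was not counted for that fit. Under each fit for which the share of all genes called is given, the share of members called was below it.

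The spread of the group means was small. The difference between the highest and the lowest group mean of a member had a median of 0.24 on the log2 scale, against 0.52 over all genes tested, and the median SD within groups was 0.22 against 0.36. With the 3 rRNA-rich libraries left out the median range of members was 0.17 against 0.46, and the SD within groups 0.13 against 0.26. In those 33 libraries 29 of the 60 members had their highest group mean in torpor, where 22.6% of all genes did, and 24 had their lowest in interbout euthermia and 6 in the refractory group, where 14.1% and 19.1% did. With all libraries 29 were highest in torpor (23.2% of genes), 14 lowest in interbout euthermia (11.8%) and 36 lowest in the refractory group (27.8%). No test was made of these counts, and members of one library share its depth and RNA quality.

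Sdhd, a membrane anchor of complex II, gave the smallest p of its complex. In the 6-group edgeR test its adjusted p was 0.294 with all libraries and 0.00164 without the rRNA-rich ones. On long photoperiod it ranged from 217.9 to 238.8 normalised CPM with a median of 231.0, and in pre-hibernation from 185.5 to 265.2 with a median of 237.8. Late pre-hibernation animals ranged from 242.5 to 255.9 (median 250.8) and interbout animals from 173.6 to 270.3 (263.2). Torpid animals ranged from 257.4 to 304.7 (272.3) and refractory animals from 96.6 to 247.6 (235.4). The lowest values of the pre-hibernation, interbout and refractory groups were their rRNA-rich libraries. Every torpid animal was above every long photoperiod animal and above every refractory animal. These pairs of groups are not among the comparisons described below, and the share of all genes separated in them was not counted. Among animals that were not rRNA-rich the mean was 230.4 ± 7.68 on long photoperiod (SD, n = 6), 240.2 ± 16.4 in pre-hibernation (n = 5) and 249.9 ± 5.55 in its late stage (n = 6). It was 264.7 ± 6.61 in interbout animals (n = 5), 276.6 ± 18.4 in torpid ones (n = 6) and 235.7 ± 14.9 in refractory ones (n = 5). The means were thus higher in pre-hibernation than on long photoperiod and higher again in its late stage, with overlap between neighbours. Interbout and torpid animals, alternating states of one stage that overlapped, had the highest means, and refractory animals lower ones.

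With all libraries none of the 4 complex II genes passed the 6-group edgeR test, and without the rRNA-rich ones only Sdhd did. Sdhc, the second smallest p of the complex in the 6-group test (edgeR adjusted p = 0.716), had group means of 262.9 ± 79.2 (refractory) to 313.0 ± 15.6 (torpor) normalised CPM. Sdha went from 674.0 ± 237.2 (refractory) to 783.8 ± 70.6 (torpor) and Sdhb from 305.3 ± 12.5 (pre-hibernation) to 336.2 ± 21.1 (torpor). For each of the 3 the groups overlapped in all 6 comparisons described below, and without the rRNA-rich libraries the adjusted p of the 6-group test was 0.199 for Sdhc, 0.81 for Sdha and 0.198 for Sdhb.

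Ndufs1 had the smallest p of complex I. It ranged from 126.3 to 162.3 normalised CPM on long photoperiod (median 128.4) and from 87.3 to 195.3 in pre-hibernation (149.9). Late pre-hibernation animals ranged from 142.6 to 177.9 (159.7) and interbout animals from 110.2 to 172.8 (154.2). Torpid animals ranged from 132.4 to 187.1 (164.1) and refractory ones from 45.6 to 141.5 (131.8). The lowest library was the rRNA-rich one in each of the 3 groups that held one. Without these libraries the interbout animals (151.0 to 172.8) lay wholly above the refractory ones (111.3 to 141.5).

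Ndufv3, an accessory subunit of the NADH-oxidising end, was the other complex I gene of smallest p (6-group edgeR adjusted p = 0.272 with all libraries). Its mean was 120.3 ± 5.28 normalised CPM on long photoperiod, 122.5 ± 3.98 in pre-hibernation and 119.2 ± 5.97 in its late stage (SD, n = 6). It was 123.5 ± 11.2 in interbout, 138.0 ± 7.49 in torpid and 115.5 ± 20.7 in refractory animals. The 6 torpid animals lay between 127.8 and 147.8, all above the long photoperiod animals, which lay between 110.8 and 124.8. The share of all genes separated in that pair of groups was not counted. The torpid animals overlapped with interbout animals, which reached 132.6. Neither Ndufv1 nor Ndufa9 passed the 6-group test: Ndufv1 had group means of 269.6 to 301.5 normalised CPM and Ndufa9 of 180.0 to 216.1, each lowest in the refractory group that holds refractory 4. Ndufb8, the most abundant complex I gene per length, had group means of 392.2 to 423.0.

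Among the complex V genes, Atp5if1 encodes the inhibitor that stops the synthase from running backwards and splitting ATP. It ranged from 169.7 to 199.4 normalised CPM on long photoperiod with a median of 176.3, and from 199.9 to 350.4 in pre-hibernation with a median of 209.9. Late pre-hibernation animals ranged from 177.4 to 224.6 (203.3) and interbout animals from 139.7 to 287.2 (186.9). Torpid animals ranged from 197.2 to 226.8 (211.4) and refractory ones from 166.9 to 236.6 (186.6). The highest pre-hibernation and interbout values came from the rRNA-rich libraries. All 6 pre-hibernation animals lay above all 6 long photoperiod animals, by a narrow margin.

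Relative to the catalytic subunit gene, log2 of Atp5if1 over Atp5f1b per length had a mean of -1.36 ± 0.07 on long photoperiod (SD, n = 6) and of -1.11 ± 0.10 in the 5 pre-hibernation animals that were not rRNA-rich. It was -1.19 ± 0.17 in the late stage, -1.46 ± 0.17 in the 5 interbout animals that were not rRNA-rich, -1.12 ± 0.14 in torpor and -1.28 ± 0.19 in the 5 refractory ones. The rRNA-rich libraries stood far above, at 0.53 for pre-hibernation 5, 0.003 for interbout 6 and 0.44 for refractory 4. The ratio is a description of chosen genes and was not tested.

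Atp5me, which helps hold synthase dimers, had the smallest p of complex V in the 6-group test. It ranged from 16.3 to 20.1 normalised CPM on long photoperiod (median 18.6), from 17.8 to 45.6 in pre-hibernation (22.4) and from 11.6 to 22.6 in its late stage (17.7). Interbout animals ranged from 11.9 to 32.5 (16.4), torpid ones from 18.7 to 25.9 (22.0) and refractory ones from 19.1 to 46.9 (22.7). The highest value of the pre-hibernation, interbout and refractory groups was the rRNA-rich library each time, the opposite of Sdhd and Ndufs1. Atp5f1a had group means of 866.6 ± 263.5 (refractory) to 1082 ± 103.0 (torpor) and Atp5f1b of 1384 ± 438.8 (refractory) to 1576 ± 91.3 (late pre-hibernation). Without the rRNA-rich libraries the lowest group mean of Atp5f1b was 1527 ± 70.1 (pre-hibernation, n = 5) and the highest 1680 ± 111.2 (interbout, n = 5).

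Ndufa4l2, known from other mammals as a target of the hypoxia-inducible factor, was scarce. Its counts ran from 1 in refractory 4 and 32 in long photoperiod 1 to 252 in late pre-hibernation 4. It ranged from 1.41 to 3.06 normalised CPM on long photoperiod (median 1.99), from 1.51 to 3.51 in pre-hibernation (2.52) and from 2.10 to 10.8 in its late stage (2.77). Interbout animals ranged from 2.24 to 5.69 (3.94), torpid ones from 2.41 to 5.74 (3.34) and refractory ones from 0.343 to 5.79 (2.90). Its 6-group test gave an adjusted p of 0.259, and 0.108 without the rRNA-rich libraries. With the mean neuron and oligodendrocyte marker levels as covariates it was the 1 member that passed. The share of all genes passing under that fit was not counted. Ndufa4 had group means of 293.4 ± 49.9 (interbout) to 329.8 ± 28.8 (late pre-hibernation), with an adjusted p of 0.601.

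**Figure D3:**
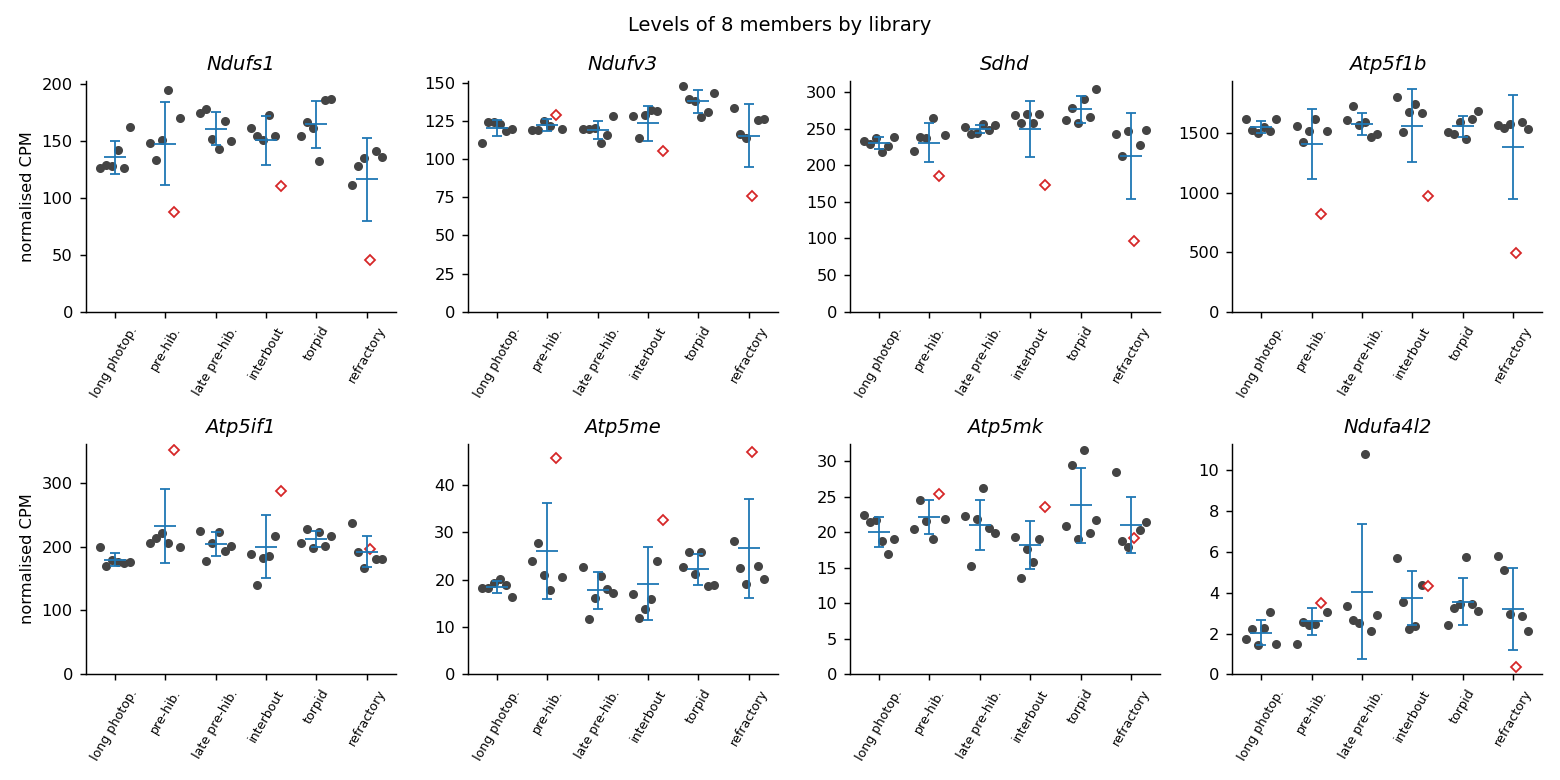
Normalised CPM of 8 members in each of the 36 libraries by group, with the mean and SD of 6 animals in blue; axes start at 0 and open diamonds are rRNA-rich libraries. Sdhd and Ndufv3 have their highest mean in torpor (276.6 and 138.0), and the rRNA-rich libraries lie low in Ndufs1, Sdhd and Atp5f1b but high in Atp5me.

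Pre-hibernation was compared with long photoperiod to ask what the first weeks of short days and cold change. None of the 60 members passed (0 of 60, against 2.29% of genes tested), with a median log2 fold change of 0.05 for members and 0.01 for all genes. Of complex I, 25 of 36 members were above 0 (median 0.06), of complex II 1 of 4 (median -0.06) and of complex V 11 of 18 (median 0.05). At an unadjusted p under 0.05 it was 4 members (6.67%), against 12.3% of all genes. These were Atp5if1 (0.37 ± 0.13 SE, adjusted p = 0.135), Ndufa3 (0.32 ± 0.13), Atp5me (0.49 ± 0.22) and Ndufa7 (0.21 ± 0.09), the Ndufa genes being accessory subunits of complex I. Ndufa3, Ndufa7 and, below, Ndufa1, Ndufa10, Ndufb1, Ndufb4, Atp5mg, Atp5mj and Atp5pf are named because of their values. Voom called 1 member, Atp5if1 at 0.25 ± 0.07 with an adjusted p of 0.0267, against 11.7% of genes, and DESeq2 called 0 (3.63% of genes). Groups did not overlap for 1 member, Atp5if1, as for 3.52% of genes. In the 33 libraries under 5% rRNA, 0 members passed (6.37% of genes), and the median was 0.01. Atp5if1 then stood at 0.21 ± 0.08 (adjusted p = 0.123), still with no overlap, as for 5.8% of genes. Atp5me was at 0.25 ± 0.15, Ndufa3 at 0.22 ± 0.11 and Ndufa7 at 0.11 ± 0.08. With all libraries 2 of 9 pituitary markers fell (median log2 fold change -1.08), where 2.29% of genes were called. Of 9 endothelial markers 2 rose (0.01). Of 10 astrocyte markers 1 fell (-0.32) and of 16 tanycyte markers 1 fell (0.30). Of the neuron, oligodendrocyte, microglia and macrophage, ependymal, mural cell and fibroblast, and erythrocyte markers 0 passed. The part of these markers in the members' values was not tested.

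Late pre-hibernation against pre-hibernation gave 0 members and 0 genes (0.0% of genes), with medians of -0.02 for members and -0.01 for all genes. At an unadjusted p under 0.05 it was 1 member, Atp5me at -0.55 ± 0.22 (adjusted p = 1.0), against 4.12% of genes. With the 3 rRNA-rich libraries left out, which leaves out pre-hibernation 5, Atp5me was at -0.31 ± 0.15 and again 0 members and 0.0% of genes passed. Voom called 0 members (0.0558% of genes) and DESeq2 0 (0.0228%). Sdhb was at 0.13 ± 0.05 without the rRNA-rich libraries (adjusted p = 0.593).

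Interbout euthermia against late pre-hibernation, after and before 3 cycles of torpor at one labelled age, gave 0 members (0.0% of genes) and 0 at an unadjusted p under 0.05 (6.16% of genes). The medians were -0.06 for members and 0.01 for all genes, and 48 of the 60 members lay below 0. Voom called 0 (3.07% of genes) and DESeq2 0 (0.204%). Without the rRNA-rich libraries 0 members passed (0.855% of genes), with a median of -0.03 and 38 members below 0. For 1 member, Sdhd at 0.08 ± 0.05 (adjusted p = 0.542), the groups did not overlap, as for 2.25% of genes. Interbout 2 lay low in the short members, and without that library the median over members was -0.01.

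Torpor against interbout euthermia compares cold with warm animals of one age at one stage. None of the 60 members passed in all 36 libraries (0 of 60, against 4.06% of genes), although 50 of the 60 lay above 0. The median log2 fold change was 0.11 for members (complex I 0.12, complex II 0.08, complex V 0.11) and 0.01 for all genes. At an unadjusted p under 0.05 it was 6 members, all above 0 (10.0%, against 15.3% of genes). They were Atp5mk (0.39 ± 0.14, adjusted p = 0.12), Ndufb4 (0.32 ± 0.12), Atp5mj (0.31 ± 0.13), Ndufb1 (0.31 ± 0.14), Atp5pf (0.30 ± 0.14) and Atp5mg (0.25 ± 0.12). All are short genes for small subunits: Ndufb1 and Ndufb4 lie in the membrane arm of complex I, Atp5pf couples the stalk of the synthase to its membrane part, and the others lie in that membrane part.

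Atp5mk was the only member called in torpor without the rRNA-rich libraries, at 0.46 ± 0.14 (adjusted p = 0.0298; 1 of 60, against 8.94% of genes). Its 6 torpid animals ranged from 19.1 to 31.6 normalised CPM with a median of 21.4, and its 6 interbout animals from 13.6 to 23.6 with a median of 18.4, so that the groups overlapped. Its highest interbout value was the rRNA-rich library and its lowest interbout 2. In all 36 libraries but interbout 2, Atp5mk stood at 0.31 (adjusted p = 0.295), Ndufb4 at 0.24 and the median over members at 0.07. Voom called 7 members (10.7% of genes), all higher in torpor: Ndufb1 (0.43 ± 0.11), Atp5me, Atp5mk, Atp5pf, Ndufb4, Ndufa1 and Atp5mg (0.25 ± 0.08). DESeq2 called 0 (7.0% of genes). In the 33 libraries under 5% rRNA the median over members was 0.06, with 40 of 60 above 0, and Atp5f1b was at -0.12 ± 0.05 (adjusted p = 0.143).

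Refractory against interbout euthermia compares animals that had left the hibernating phase with animals in it. None of the 60 members passed (0 of 60, against 3.5% of genes), and the medians were -0.03 for members and 0.02 for all genes. At an unadjusted p under 0.05 it was 2 members (19.3% of genes), Ndufs1 at -0.36 ± 0.17 (adjusted p = 0.23) and Ndufa10, a complex I accessory subunit, at -0.23 ± 0.11 (adjusted p = 0.215). All 4 complex II genes lay below 0, between -0.23 (Sdhd) and -0.11. Voom called 3 members (6.53% of genes): Ndufb1 (0.40 ± 0.12) and Atp5me (0.49 ± 0.14) were higher and Ndufa10 (-0.19 ± 0.06) lower in refractory animals. DESeq2 called 0 (5.54% of genes).

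Without the rRNA-rich libraries 0 members passed in that comparison (3.02% of genes), and the median was 0.05. For 3 members (5.0%) the refractory animals lay wholly below the interbout ones. That is about the share of all genes for which the groups did not overlap (4.97%). These were Ndufs1 at -0.28 ± 0.10 (adjusted p = 0.0949), Ndufa10 at -0.18 ± 0.06 (0.0696) and Sdhd at -0.17 ± 0.06 (0.0816). Markers of other cells were counted in the same comparison with all libraries. Of 9 pituitary markers 5 rose (median log2 fold change 2.27), where 3.5% of all genes were called. Of 14 mural cell and fibroblast markers 3 rose (0.42), and of 9 endothelial markers 1 rose (0.51). Of 17 neuron markers 1, Eno2, fell (median 0.49), and of 9 oligodendrocyte markers 0 passed (0.46). Of 16 tanycyte markers 1 rose and 2 fell (-0.31), and of 10 astrocyte and 14 microglia and macrophage markers 0 passed (-0.01 and -0.07). Without the rRNA-rich libraries 3 pituitary markers rose (median 2.47), and 0 mural cell and fibroblast (0.51) and 0 endothelial markers (0.35) passed. The neuron marker Syn1 then rose (median of all neuron markers 0.51). The tanycyte marker Dio2 (-0.29) and the astrocyte marker Aldh1l1 (-0.06) were then the calls of their lists, both falls. Summed pituitary markers ran from 108.5 to 214.4 normalised CPM in interbout and from 113.1 to 1846 in refractory animals. Their part in the members' values was not tested.

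Refractory against long photoperiod, animals past hibernation on short days in the cold against animals on long days in the warm at one labelled age, gave 0 members (0.329% of genes), with medians of -0.05 for members and 0.03 for all genes. At an unadjusted p under 0.05 it was 1 member, Atp5me at 0.49 ± 0.22 (adjusted p = 0.335), against 13.0% of genes. Voom called 0 (1.04% of genes) and DESeq2 0 (1.78%). In the 33 libraries under 5% rRNA, 0 members passed (0.531% of genes), and the median over members turned to 0.05, with 45 of 60 above 0. Complex II then lay at a median of 0.04, Ndufa4l2 at 0.86 ± 0.34 (adjusted p = 0.404) and Atp5me at 0.28 ± 0.15 (0.649).

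**Figure D4:**
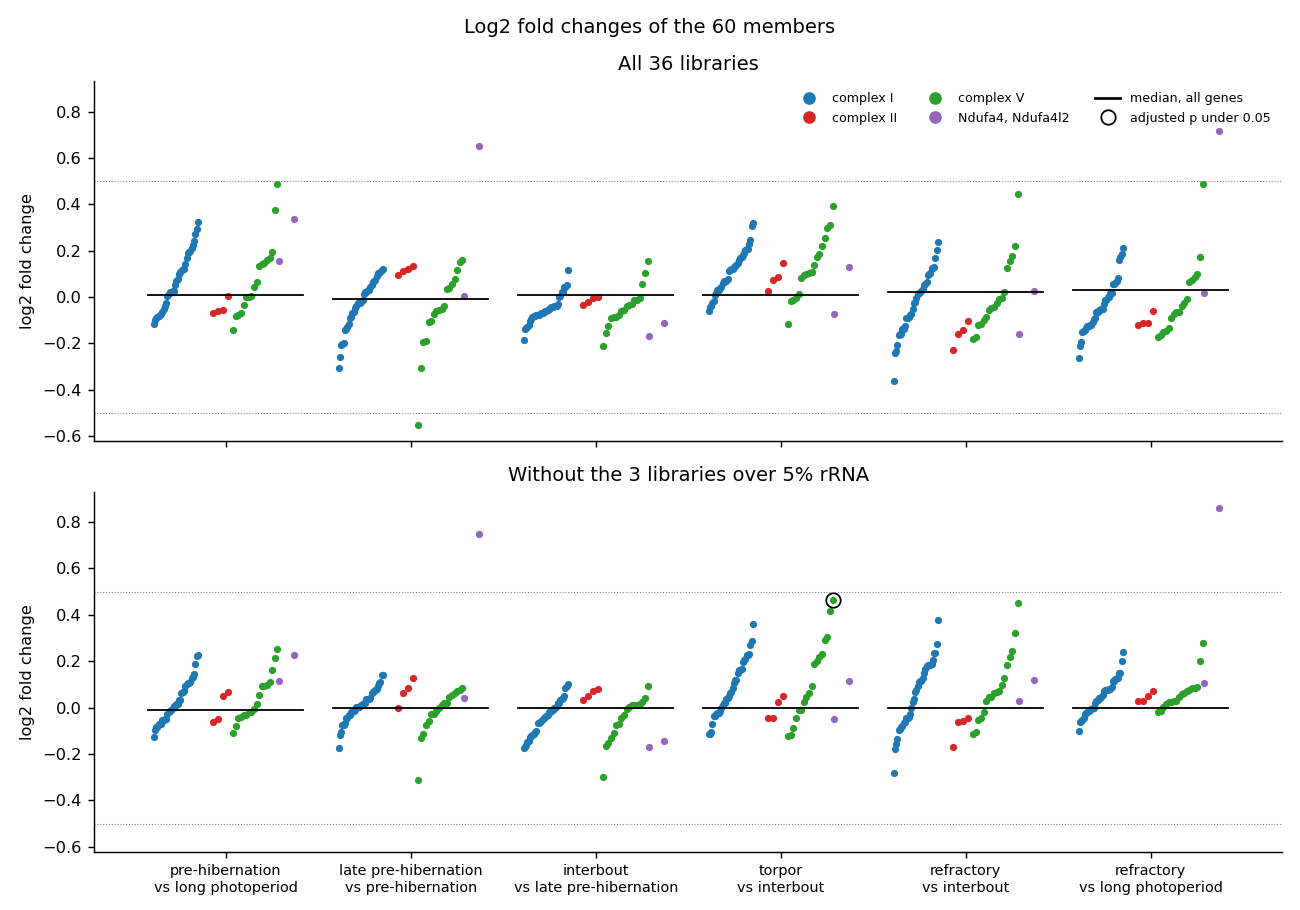
Log2 fold changes of the 60 members in the 6 comparisons, by complex, with all 36 libraries (top) and without the 3 rRNA-rich ones (bottom); black bars are medians over all genes tested, dotted lines lie at -0.5 and 0.5. Atp5mk in torpor (0.46, bottom) is the member that edgeR called.

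The intervals of the differences give the size of change that fits these data. In all 36 libraries the 95% interval lay within 0.5 on the log2 scale (1.41-fold) of 0 for 52 of the 60 members in pre-hibernation against long photoperiod, as for 38.5% of genes. It did so for 52 in late pre-hibernation against pre-hibernation (46.2%) and for 58 in interbout euthermia against late pre-hibernation (43.4%). The count was 51 in torpor against interbout euthermia (34.8%), 51 in refractory against interbout euthermia (35.1%) and 52 in refractory against long photoperiod (39.1%). A 2-fold change lay outside the interval for 59 or 60 of the 60 in each comparison, the exception being Ndufa4l2 with upper bounds of 1.08, 1.39 and 1.46 in 3 of them. Without the rRNA-rich libraries 54 to 58 members had intervals within 0.5, and the median SE over members fell from 0.12 to 0.08. The members have high counts, and also a median SD within groups of 0.22 against 0.36 over all genes with all libraries. The part of each in the width of the intervals was not tested.

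Fold changes of the members ran with the length of their exons. Members had a median exon length of 713.5 bases, from 371 (Ndufa1) to 2939 (Sdha), against 2759.5 over all genes tested. In torpor against interbout euthermia without the rRNA-rich libraries, the 43 members under 1000 bases had a median log2 fold change of 0.12 and the 17 longer ones of -0.02. In refractory against interbout euthermia the medians were 0.11 and -0.08, and in interbout euthermia against late pre-hibernation -0.06 and 0.04. Spearman's correlation of fold change with length over the 60 genes was -0.77, -0.84 and 0.75 in these comparisons, and -0.51, -0.80 and 0.24 with all libraries. In pre-hibernation against long photoperiod it was -0.36 without and -0.64 with the rRNA-rich libraries, in the next step 0.60 and 0.82, and in refractory against long photoperiod -0.62 and -0.72. Genes are not independent replicates, the 3 comparisons with interbout euthermia share its animals, and all points of a comparison share the same libraries.

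The length pattern was also seen library by library. Interbout 2 had a median difference of -0.41 over the members under 1000 bases and of -0.05 over the longer ones. Refractory 1 had 0.30 and 0.04, pre-hibernation 5 had 0.28 and -0.44, and refractory 4 had -0.72 and -1.39. The 7 members that voom called higher in torpor have 371 (Ndufa1), 390 (Atp5me), 416 (Ndufb1), 434 (Atp5mk), 497 (Ndufb4), 518 (Atp5mg) and 567 bases (Atp5pf). Ndufa3 and Atp5f1e, with 437 bases each, were not called. Ndufs1, Ndufa10 and Sdhd, whose refractory animals lay below the interbout ones in the 33 libraries under 5% rRNA, have 2573, 1464 and 1253 bases. The part of transcript length in the members' values was not tested.

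**Figure D5:**
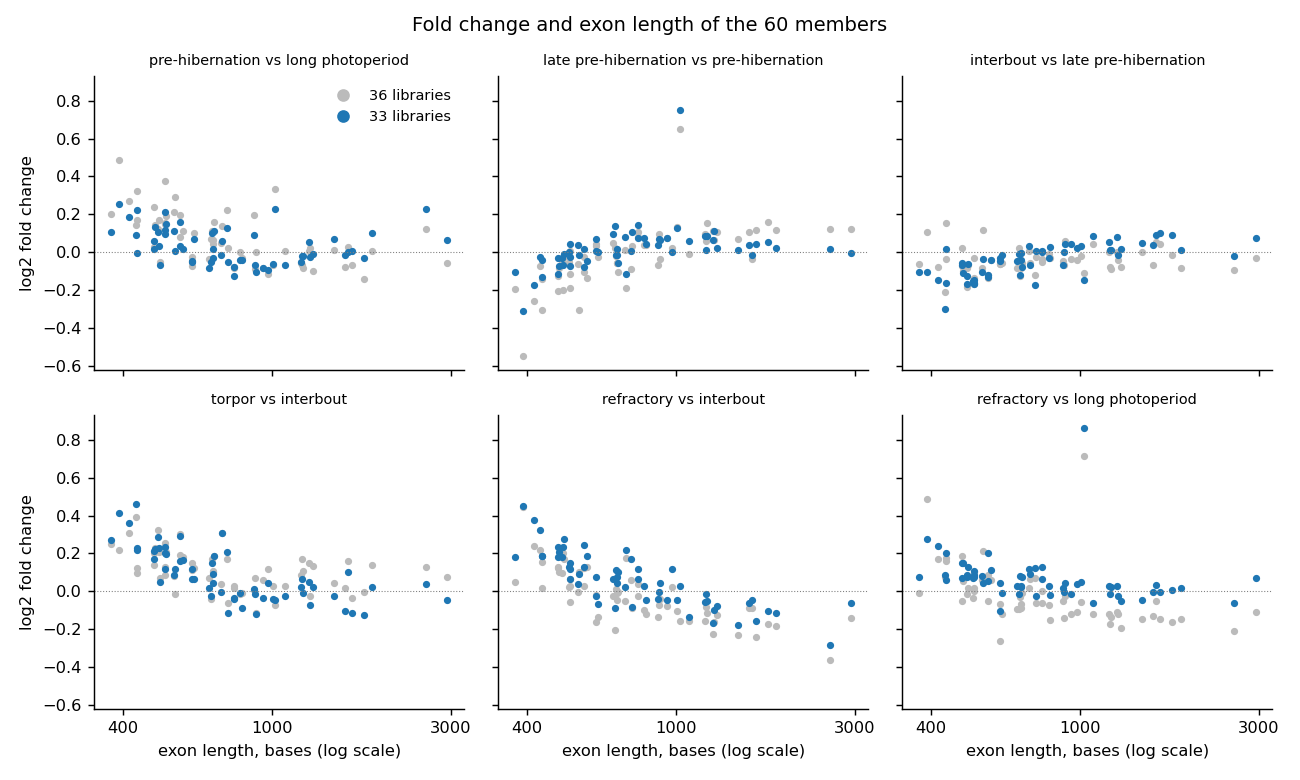
Log2 fold change of each of the 60 members against its exon length (log scale) in the 6 comparisons, with all 36 libraries (grey) and without the 3 rRNA-rich ones (blue). Short members lie higher than long ones in torpor and in refractory animals against interbout euthermia (rank correlations of -0.77 and -0.84 in blue).

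The genes that mitochondria encode themselves, 11 of 13 tested, gave 0 calls in each of the 6 comparisons and in the 6-group test with all libraries. Without the rRNA-rich ones ND1 passed the 6-group test (27.7% of genes) and ND3 was higher in torpor (8.94% of genes called), both encoding complex I core subunits. Their median log2 fold changes in the 6 comparisons, in the order above, were 0.56, -0.65, 0.90, -0.99, 0.58 and 1.38 with all libraries. With the rRNA-rich libraries left out they were -0.19, 0.12, 0.03, -0.13, 0.20 and 0.13. The ratio of mitochondrially encoded to nuclear member counts was 1.52 ± 0.17 on long photoperiod, 1.42 ± 0.215 in late pre-hibernation and 1.31 ± 0.16 in torpor (SD, n = 6). Among animals that were not rRNA-rich it was 1.32 ± 0.07 in pre-hibernation, 1.44 ± 0.09 in interbout and 1.63 ± 0.19 in refractory animals (n = 5 each). It was 7.20 in pre-hibernation 5, 10.8 in interbout 6 and 30.7 in refractory 4.

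Assembly factors build the complexes without staying in them. With all libraries 1 of 26 tested passed the 6-group test, against 14.6% of genes. It was Timmdc1, a complex I assembly factor that was lowest in refractory animals (50.1 ± 4.67 normalised CPM against 58.9 ± 4.09 on long photoperiod, adjusted p = 0.0116). In torpor against interbout euthermia 1 passed, against 4.06% of genes. That was Ndufaf5, which modifies a complex I subunit, at 0.38 ± 0.11 (adjusted p = 0.0416); the call was lost in 9 of 12 fits that left out 1 library of these groups, with adjusted p up to 0.124. In the 33 libraries under 5% rRNA 7 of 26 passed the 6-group test, against 27.7% of genes, and in torpor 1 rose and 2 fell, against 8.94% of genes called.

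Tmem70, which helps to assemble the ATP synthase and complex I, fell in torpor without the rRNA-rich libraries by 0.61 ± 0.08 on the log2 scale (adjusted p = 3.15e-06). Its torpid animals ranged from 25.3 to 31.9 normalised CPM (median 27.6), all below the 5 interbout animals that were not rRNA-rich, which ranged from 39.0 to 48.7. They also lay below every animal that was not rRNA-rich in the other 4 groups, whose lowest values were 39.97 on long photoperiod, 37.8 in pre-hibernation, 32.6 in its late stage and 43.7 in refractory animals. Torpid and interbout animals did not overlap for 5.59% of genes in these libraries. The share of genes separated from all other groups was not counted. Interbout 6 had 24.5, and with it the change was -0.49 ± 0.17 (adjusted p = 0.101). Nubpl, which delivers iron-sulfur clusters to complex I, fell in torpor by 0.69 ± 0.15 (adjusted p = 0.00178), from 37.2 ± 5.26 in the 5 interbout animals to 23.3 ± 3.95 in the 6 torpid ones. With all libraries Nubpl was at -0.52 ± 0.18 (adjusted p = 0.103). In refractory against interbout euthermia without the rRNA-rich libraries, the complex II factor Sdhaf3 rose by 0.44 ± 0.12 (adjusted p = 0.0322) and the complex I factor Tmem186 fell by 0.43 ± 0.12 (0.0412).

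Of 18 regulators of mitochondrial gene expression and biogenesis, 2 passed the 6-group test with all libraries, where 14.6% of genes did. In the 33 libraries under 5% rRNA it was 6 (27.7% of genes), Yy1, Tefm, Pprc1, Ppargc1b, Sirt3 and Ppargc1a. Yy1, a transcription factor, was lowest in torpor at 10.7 ± 1.87 normalised CPM against 16.5 ± 4.57 in interbout euthermia, a change of -0.63 ± 0.16 (adjusted p = 0.0197). The call was lost without interbout 6 (adjusted p = 0.0851), torpid 1 or torpid 2, and was kept when all 3 rRNA-rich libraries were left out (-0.48 ± 0.13, adjusted p = 0.0118). Ppargc1a, the coactivator that drives mitochondrial biogenesis, ranged from 32.5 ± 6.45 in late pre-hibernation to 48.9 ± 15.2 in refractory animals (6-group adjusted p = 0.0453), and 43.6 in the latter without refractory 4. Gabpa, a factor known to bind promoters of respiratory chain genes, was higher in torpor (42.5 ± 2.93 against 32.7 ± 4.53; 0.38 ± 0.11, adjusted p = 0.0414), a call that was lost in 10 of 12 fits leaving out 1 library, with fold changes of 0.32 to 0.42, and kept without the 3 rRNA-rich ones (0.31 ± 0.09, adjusted p = 0.0201). Tefm, the elongation factor of mitochondrial transcription, fell in torpor by 0.45 ± 0.09 (adjusted p = 0.001) without the rRNA-rich libraries, and was at -0.34 ± 0.15 (0.241) with them. Its torpid animals ranged from 16.3 to 19.8 normalised CPM, and the lowest of the other animals that were not rRNA-rich was a refractory one at 20.3. In these libraries torpid and interbout animals did not overlap for 5.59% of genes. The share separated from all other groups was not counted.

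Of the carriers that move adenine nucleotides and phosphate or belong to the uncoupling protein family, 2 of 11 tested passed the 6-group test, where 14.6% of genes did. Slc25a27, of the uncoupling protein family, had 5.67 ± 1.06 normalised CPM on long photoperiod, 8.19 ± 0.918 in pre-hibernation and 8.12 ± 1.39 in its late stage. It had 8.83 ± 1.71 in interbout, 10.4 ± 1.54 in torpid and 5.40 ± 1.503 in refractory animals (6-group adjusted p = 0.000487). It was lower in refractory than in interbout animals by 0.66 ± 0.17 on the log2 scale (adjusted p = 0.0242), a call lost in 4 of 12 fits leaving out 1 library (adjusted p up to 0.0601). Slc25a14, of the same family, ranged from 27.2 to 30.7 in torpor (29.2 ± 1.16), and from 37.4 to 44.0 in the 5 interbout animals that were not rRNA-rich (interbout 6 had 29.4). Without the rRNA-rich libraries these groups did not overlap for 5.59% of genes. Without the rRNA-rich libraries Slc25a14 fell in torpor by 0.50 ± 0.07 (adjusted p = 1.02e-05), and with them it was at -0.41 ± 0.14 (0.0961). Of 17 genes of the tricarboxylic acid cycle and pyruvate dehydrogenase 0 passed with all libraries. Of 6 other respiratory chain genes, among them the complex I subunit Ndufab1, 0 passed in either fit.

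Ribosomal protein genes were counted beside the members. Of 77 cytosolic ribosomal protein genes 0 passed in the 6-group test or in a comparison with all libraries. Without the rRNA-rich ones 2 (Rpl4 and Rps27l) passed the 6-group test, against 27.7% of genes. With all libraries their medians ran from -0.03 to 0.06. Of 75 mitochondrial ribosomal protein genes 3 passed the 6-group test (Mrpl51, Mrps6 and Mrpl17), against 14.6% of genes. Mrps6 rose in pre-hibernation by 0.52 ± 0.13 (adjusted p = 0.0189), where 2.29% of genes were called. Mrpl51 fell in torpor by 0.36 ± 0.10 (adjusted p = 0.0225), where 4.06% were called. The 6 torpid animals ranged from 57.2 to 70.5 normalised CPM for Mrpl51 and the interbout ones from 76.1 to 87.9. With all libraries these groups did not overlap for 3.94% of genes. With the 3 rRNA-rich libraries left out 14 of the 75 passed the 6-group test, where 27.7% of genes did, and in torpor 2 rose and 7 fell, where 8.94% of genes were called. Whether these sets differ from the members was not tested.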

How the data were processed

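Paired-end RNA-seq reads were counted per gene by the authors with featureCounts 2.0.1 over RefSeq exons of the hamster assembly BCM_Maur_2.0, without strand, per the file headers, and the deposited values are raw counts. For the alignment, no settings are given in the sources used here. Of 60 members, 60 matched the RefSeq gene table by symbol; sequences were not used here.

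Genes were filtered with filterByExpr, scaled by TMM and fitted in 1 model of all 36 libraries with edgeR 4.0.16 (robust quasi-likelihood, R 4.3.3), with Benjamini-Hochberg adjustment over 17926 genes and a threshold of 0.05. Every adjusted p is from this test unless limma 3.58.1 (voom with sample quality weights) or DESeq2 1.42.0 is named. Log2 fold changes are given ± SE, and levels as TMM-normalised CPM ± SD. Tables and plots used Python 3.11.15. Totals of 5161108 to 28541745 counts set the precision of each library. Groups came from the sample titles; each library is 1 animal. The scripts were tested on simulated counts.

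Named were members passing a test, the 2 of smallest p per complex, a fixed list of core subunits, those with the highest and lowest level per length, and up to 2 passing genes of each other list. The members and lists were chosen with earlier results of these data known. Alternatives were other filters, scalings and tools, leaving out libraries, fits of the compared groups alone, marker covariates, the long photoperiod group in 2 parts and a block for replicate number.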

Additional observations from a re-analysis of the deposited data

Results flagged for a closer look

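A library stood apart from its group (gap to the nearest other library over the group's whole range above Dixon's 95% critical value for 6 samples) in 37 values over 132 groups of 6. Chance alone gives this in about 1 in 20 groups. Of these 37, 30 were in the 3 rRNA-rich libraries.

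Refractory 4 (41.8% rRNA) was low in most named members. In complex I it had 45.56 normalised CPM of Ndufs1, 132.6 of Ndufv1, 76.05 of Ndufv3 and 79.14 of Ndufa9. In complex II it had 206.2 of Sdha, 177.8 of Sdhb, 106.5 of Sdhc and 96.61 of Sdhd. In complex V it had 336.1 of Atp5f1a, 489.2 of Atp5f1b, 153.8 of Atp5mc2 and 128.5 of Atp5mc3, but a high 46.93 of Atp5me. Its median log2 position was -0.80 in complex I, -1.42 in complex II and -0.88 in complex V.

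Interbout 6 was low, with 110.2 normalised CPM of Ndufs1, 175.4 of Ndufv1, 126.8 of Ndufa9, 459.6 of Sdha, 241.9 of Sdhc, 173.6 of Sdhd, 636.5 of Atp5f1a and 969.6 of Atp5f1b. Its complex II position was -0.41. Pre-hibernation 5 was low in Ndufa9 (126.6) and Atp5f1b (819.6), and high in Atp5if1 (350.4), Atp5me (45.6) and Atp5mc1 (474.1).

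Outside these libraries, late pre-hibernation 4 had 10.77 normalised CPM of Ndufa4l2. Torpid 4 had 5.74 of Ndufa4l2, 647.5 of Sdha and 284.1 of Atp5mc3. Long photoperiod 1 had 320.9 of Atp5mc3 and 199.4 of Atp5if1, and refractory 1 had 28.57 of Atp5mk.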

How the results depend on the processing

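The count of members passing edgeR's test was 0 in each comparison and across the 6 groups. It moved to 8 with limma voom, 3 without the libraries over 5% rRNA and 1 with neuron and oligodendrocyte covariates across the 6 groups, and ranged from 0 to 1 over fits leaving out 1 library each (1, Atp5me, without interbout 6). With voom it was 1 in pre-hibernation against long photoperiod, 7 in torpor and 3 in refractory against interbout euthermia, and leaving out the rRNA-rich libraries gave 1 in torpor. The cause was not tested. The other counts were 0 under every alternative run, and some medians changed sign. Refractory against interbout euthermia turned from -0.03 to 0.05 without the rRNA-rich libraries and to 0.04 with voom, and refractory against long photoperiod from -0.05 to 0.05 and 0.03. Late pre-hibernation against pre-hibernation turned from -0.02 to 0.01 without the rRNA-rich libraries. Leaving out 1 library, the members' median log2 fold change ranged from 0.06 to 0.14 in torpor, and from -0.11 to 0.06 in refractory against interbout euthermia. With the replicate block, which takes the number in the sample titles as a factor, 0 members passed and the median in torpor was 0.11; the calls of Gabpa, Ndufaf5 and Slc25a27 were lost. Same-numbered libraries correlated between -0.33 and 0.27 in their deviations, with at most 3 of 6 over 0.1, so that the numbers were not taken to pair animals. Depth was limiting for Ndufa4l2, with 1 count in refractory 4.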
